A study of Mus musculus with 6 samples.

Results

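The NADPH oxidase subunit genes were followed as 1 family in mouse heart RNA-seq. The members were the 7 rows of the deposited expression table with the gene names Cybb, Cyba, Ncf1, Ncf4, Nox4, Rac1 and Rac2, out of 30914 genes in the table. All 7 passed the filter on low values, as did 13089 genes in all. The filter kept genes at 0.5 FPKM or more in at least 3 of the 6 libraries, FPKM being fragments scaled to transcript length and to the mapped fragments of the library. Ncf4 passed it mainly through the Ang II libraries, where all 3 were above the limit against 1 of 3 in the other group.

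All 6 hearts came from wild-type male C57BL/6J mice, 8 weeks old in the protocol, that received angiotensin II (Ang II) from osmotic pumps at 1 μg/kg/min for 4 weeks. The Ang II group (n = 3) received no Tec. The Ang II + Tec group (n = 3) also received tectochrysin (Tec), a plant flavone, by injection at 5 mg/kg over the last 2 weeks. Saline and Tec-only hearts were not analysed here, so the comparison describes Tec on top of Ang II and not the effect of Ang II itself. The label gives the sample only as heart, with no chamber.

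NADPH oxidases move electrons from NADPH across a membrane to oxygen and so release superoxide or hydrogen peroxide. In phagocytes the catalytic chain gp91phox (NOX2, gene Cybb) sits in the membrane with p22phox (Cyba) and stays silent until cytosolic subunits, among them p47phox (Ncf1) and p40phox (Ncf4), and a Rac GTPase dock onto it. NOX4 also pairs with p22phox but is active without the cytosolic subunits and is known from fibroblasts, endothelium, smooth muscle and cardiomyocytes. Ang II signalling through its type 1 receptor is a textbook trigger of these enzymes in heart and vessel wall.

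Libraries were not alike in ways that touch these genes. FPKM summed to between 516699 and 629989 per library, between 20998 and 22385 genes were above 0, and mitochondrial transcripts took 40.1% to 52.5% of the sum, with the lowest shares in Ang II replicates 1 and 2. FPKM carry no fragment total, so the depth behind each value is unknown. Cardiomyocyte markers were abundant in every library, with the 7 genes of that list (Myh6, Tnnt2, Tnni3, Actc1, Ryr2, Myl2 and Pln) summing to between 8446 and 10317 FPKM. The atrial light chain gene Myl7 stood at 419.0, 332.3 and 0 FPKM in Ang II replicates 1 to 3 and at 0, 1040 and 1.58 FPKM in Ang II + Tec replicates 1 to 3. Myl7 was thus abundant in 3 hearts, of both groups, and near 0 in the other 3, where the natriuretic peptide gene Nppa of the same atrial list was still at 124.9 to 906.1 FPKM. In whole tissue, fewer cells of a type and less RNA per cell cannot be told apart.

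All 7 subunit genes had a lower mean with Tec, and none passed the test after adjustment over the 13089 genes (limma on log2(FPKM + 1), Benjamini-Hochberg adjusted p between 0.237 and 0.414). At an unadjusted p under 0.05, 5 of 7 were lower (Cybb, Cyba, Ncf1, Ncf4 and Rac2), where 16.5% of all tested genes were lower and 2.09% higher at that limit. Every Ang II heart lay above every Ang II + Tec heart for 3 of 7 (Cybb, Cyba and Ncf4), against 18.9% of all tested genes. The median difference of the members was -0.65 on the log2 scale, beside -0.17 for all tested genes, of which 80.0% were lower with Tec. With differential expression defined as an adjusted p under 0.05 together with a log2 difference of 1 or more in either direction, the whole table gave 21 genes (0.16%), 11 higher and 10 lower, and no member was among them.

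**Figure D1:**
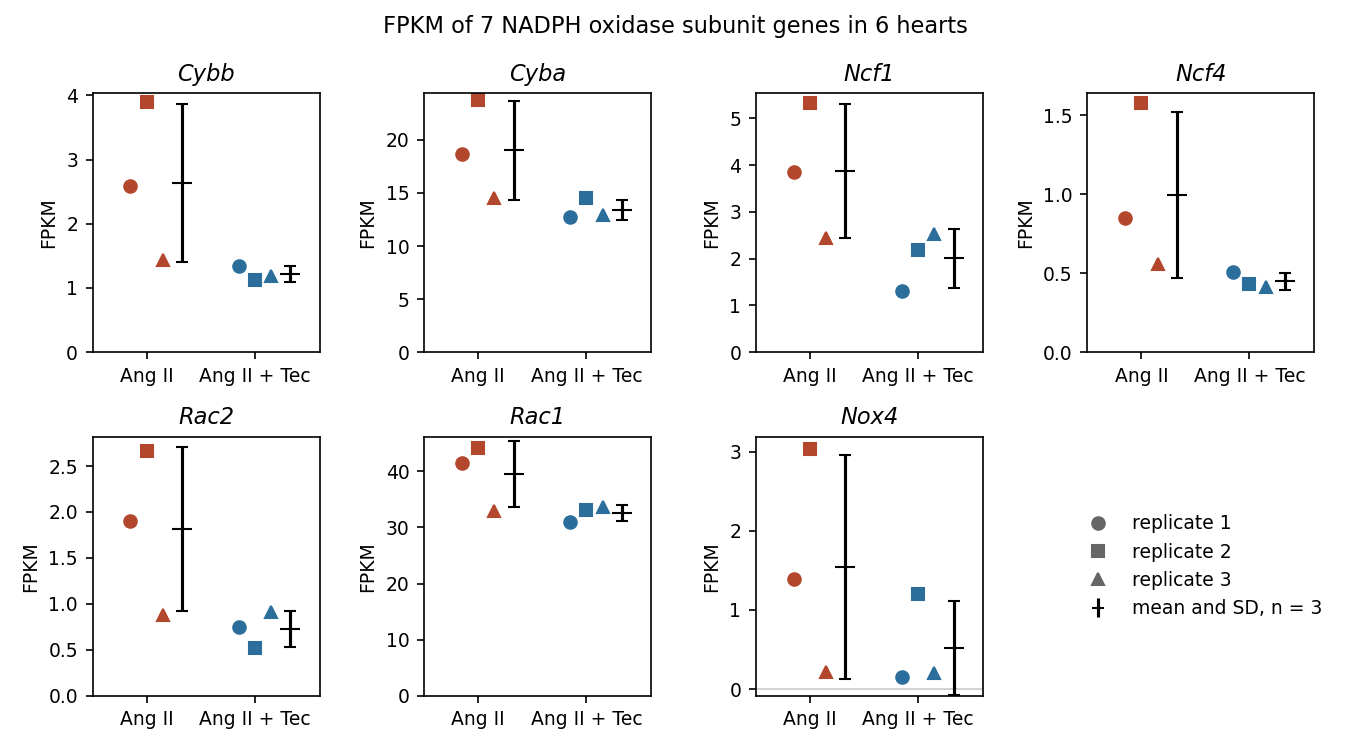
FPKM (vertical axes, from 0 or just below it) of each subunit gene in the 3 Ang II hearts (red) and the 3 Ang II + Tec hearts (blue), with marker shapes for replicates 1 to 3 and black bars for the mean and SD (n = 3). Ang II replicate 2 was the highest library and Ang II replicate 1 the next in all 7 panels, while Ang II replicate 3 lay within or below the Ang II + Tec range in 4 of them (Ncf1, Rac2, Rac1 and Nox4).

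Levels could be ranked across genes because FPKM are per length. By the mean of the 6 libraries, the order in FPKM was Rac1 at 36.0, Cyba at 16.2, Ncf1 at 2.94, Cybb at 1.93, Rac2 at 1.27, Nox4 at 1.03 and Ncf4 at 0.723. Only the first 2 steps, from Rac1 to Cyba and from Cyba to Ncf1, had ranges that did not overlap. Cybb was above Rac2 in 6 of 6 libraries although their ranges overlapped, while Nox4 was above Ncf4 in 3 of 6. The widely expressed partners Rac1 and Cyba therefore stood far above both catalytic chains, exceeding 93.4% and 85.6% of tested genes in mean FPKM, against 33.1% for Cybb and 16.3% for Nox4.

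Cybb (ENSMUSG00000015340, chrX:9435252-9487771 on the minus strand of GRCm38) encodes the catalytic chain of the phagocyte oxidase. It measured 2.59, 3.89 and 1.43 FPKM in the Ang II hearts and 1.35, 1.12 and 1.18 FPKM in the Ang II + Tec hearts. The groups did not overlap, but the lowest Ang II heart was only 0.080 FPKM above the highest Ang II + Tec heart. Means were 2.64 ± 1.23 and 1.22 ± 0.119 FPKM (SD, n = 3), a ratio of 0.461. The log2 fold change was -0.66 (SE 0.24, 95% confidence interval -1.22 to -0.096; limma adjusted p = 0.237).

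Nox4 (ENSMUSG00000030562, chr7:87246096-87398710, plus strand) encodes the other catalytic chain of the family. Its FPKM were 1.39, 3.03 and 0.21 with Ang II and 0.15, 1.20 and 0.20 with Ang II + Tec. The groups overlapped, since Ang II + Tec replicate 2 was well above Ang II replicate 3, and the highest library was 20.2 times the lowest, the widest range of the 7 genes. Means were 1.54 ± 1.42 and 0.517 ± 0.592 FPKM (SD, n = 3). The log2 fold change of -0.65 (SE 0.44, 95% confidence interval -1.69 to 0.39) did not exceed the spread between hearts (limma adjusted p = 0.414). It was -1.30 with a pseudocount of 0.1 in place of 1 FPKM. Leaving out Ang II replicate 2 gave -0.23, and leaving out replicate 3 of that group gave -1.10.

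The start regions of both catalytic genes are shown because the genes differed in how they varied across the hearts. The RefSeq windows run from 250 bases before to 50 bases after the annotated start on GRCm38.p6, and 4 of the 7 members (Cybb, Nox4, Cyba and Ncf1) were matched in the table used. Capitals mark matches, on either strand, to GAGGAA, a core of the sites bound by the myeloid factor PU.1, or to GGGCGG, the GC box bound by Sp1. Neither printed window held both motifs. Both windows lie inside the gene spans given above, so the RefSeq starts used here are not the outer 5′ ends of those spans. The Cybb window is chrX:9469275-9469574 (minus strand) and the Nox4 window chr7:87246399-87246698 (plus strand), each written 5′ to 3′.
Cybb: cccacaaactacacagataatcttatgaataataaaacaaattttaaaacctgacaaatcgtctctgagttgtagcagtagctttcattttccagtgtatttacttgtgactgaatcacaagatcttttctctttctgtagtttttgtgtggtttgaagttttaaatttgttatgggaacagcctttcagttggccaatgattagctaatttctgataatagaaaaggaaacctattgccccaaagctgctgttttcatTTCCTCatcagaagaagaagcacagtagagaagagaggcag
Nox4: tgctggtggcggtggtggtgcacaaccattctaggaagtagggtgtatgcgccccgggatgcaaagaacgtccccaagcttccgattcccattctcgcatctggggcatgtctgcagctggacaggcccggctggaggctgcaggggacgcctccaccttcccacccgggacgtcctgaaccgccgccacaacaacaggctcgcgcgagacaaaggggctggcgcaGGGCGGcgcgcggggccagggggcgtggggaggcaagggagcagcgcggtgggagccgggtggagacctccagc
The Cybb window held 1 match to GAGGAA, on the opposite strand with its first base at +10, and no match to GGGCGG. The Nox4 window held 1 GGGCGG at -24 and no match to GAGGAA. Of the other matched members, Cyba held 2 matches to GGGCGG and Ncf1 held 1. Across 32851 RefSeq start windows of this length, 28.3% held GAGGAA and 35.7% held GGGCGG, so either match is common, and a match describes the letters and not a bound site. Ncf4, Rac1 and Rac2 were not matched.

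The ratio of the catalytic chains followed the Nox4 values. Cybb over Nox4 was 1.86, 1.28 and 6.81 in the Ang II hearts and 9.0, 0.933 and 5.90 in the Ang II + Tec hearts. Ratios were low in the same 3 hearts, of both groups, in which Nox4 was high. The mean log2 ratio was 0.54 higher with Tec, which was not distinguishable from the spread (two-sided exact permutation test, p = 0.9, where 3 against 3 cannot go below 0.1).

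Cyba (ENSMUSG00000006519, chr8:122424776-122432930, minus strand) encodes p22phox, the membrane partner that both catalytic chains need. Its values were 18.7, 23.8 and 14.6 FPKM with Ang II and 12.8, 14.5 and 12.9 FPKM with Ang II + Tec. The groups did not overlap, again by a margin of 0.080 FPKM, between Ang II replicate 3 and Ang II + Tec replicate 2. Means were 19.0 ± 4.63 and 13.4 ± 0.958 FPKM (SD, n = 3), and the log2 fold change was -0.45 (SE 0.18; limma adjusted p = 0.25).

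Ncf1 (ENSMUSG00000015950, chr5:134220053-134229625, minus strand) encodes p47phox, the organiser that carries the activation signal to the membrane once phosphorylated. It measured 3.85, 5.33 and 2.45 FPKM with Ang II and 1.3, 2.19 and 2.52 FPKM with Ang II + Tec. Ang II + Tec replicate 3 was above Ang II replicate 3, so the groups overlapped. The log2 fold change of -0.68 (SE 0.25) had an adjusted p of 0.240 (limma).

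Ncf4 (ENSMUSG00000071715, chr15:78244801-78262580, plus strand) encodes p40phox, which binds a phosphoinositide on the phagosome. It was the least abundant member, at 0.85, 1.58 and 0.56 FPKM with Ang II and 0.51, 0.43 and 0.41 FPKM with Ang II + Tec. The groups were separated by 0.050 FPKM, and 2 of the 3 Ang II + Tec values lay under the filter limit. The log2 fold change was -0.43 (SE 0.18; limma adjusted p = 0.267). With the smaller pseudocount of 0.1 FPKM it was -0.89, since the addition of 1 FPKM compresses differences in weakly expressed genes.

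The 2 Rac GTPases of the family differ in where they are used, Rac2 being largely restricted to blood cells and Rac1 being present in nearly all cells. Rac2 (ENSMUSG00000033220, chr15:78559167-78572783, minus strand) stood at 1.90, 2.66 and 0.88 FPKM with Ang II and at 0.75, 0.52 and 0.91 FPKM with Ang II + Tec. Ang II replicate 3 lay inside the Ang II + Tec range, and the log2 fold change was -0.66 (SE 0.24; limma adjusted p = 0.237). Rac1 (ENSMUSG00000001847, chr5:143503634-143528036, minus strand) stood at 41.4, 44.2 and 32.9 FPKM with Ang II and at 30.9, 33.2 and 33.6 FPKM with Ang II + Tec. Again Ang II replicate 3 lay among the Ang II + Tec hearts, and the log2 fold change was -0.26 (SE 0.14; limma adjusted p = 0.319).

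Rac2 per Rac1 compares the GTPases inside each library. The ratio was 0.0459, 0.0602 and 0.0267 with Ang II and 0.0243, 0.0157 and 0.0271 with Ang II + Tec. Ang II replicates 1 and 2 were the highest, and Ang II replicate 3 lay inside the Ang II + Tec range. The mean log2 ratio differed by -0.95, lower with Tec, which did not pass the test (two-sided exact permutation test, p = 0.2). In all, 3 ratios were tested, the third being Cybb to macrophage markers, and their Benjamini-Hochberg adjusted values from the exact permutation tests were 0.9 for Cybb to Nox4, 0.6 for Rac2 to Rac1 and 0.9 for Cybb to macrophage markers.

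Rescaling left Rac1 closest to 0 of the 7 members. When libraries were rescaled by median-of-ratios size factors, which brought the median of all tested genes to 0.0087, the Rac1 difference was -0.024, while Cyba stood at -0.22 and the other 5 members between -0.54 and -0.32. Cyba had moved about as far as Rac1, from -0.45 as deposited. All 7 were still below 0, and 3 instead of 5 were at an unadjusted p under 0.05, beside 7.90% of all tested genes. Those no longer under it were Cyba and Ncf4 (limma unadjusted p = 0.0968 and 0.0722). Relative to the median of all genes in the values as deposited, Rac1 stood at -0.097 and Cybb at -0.49 on the log2 scale.

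**Figure D2:**
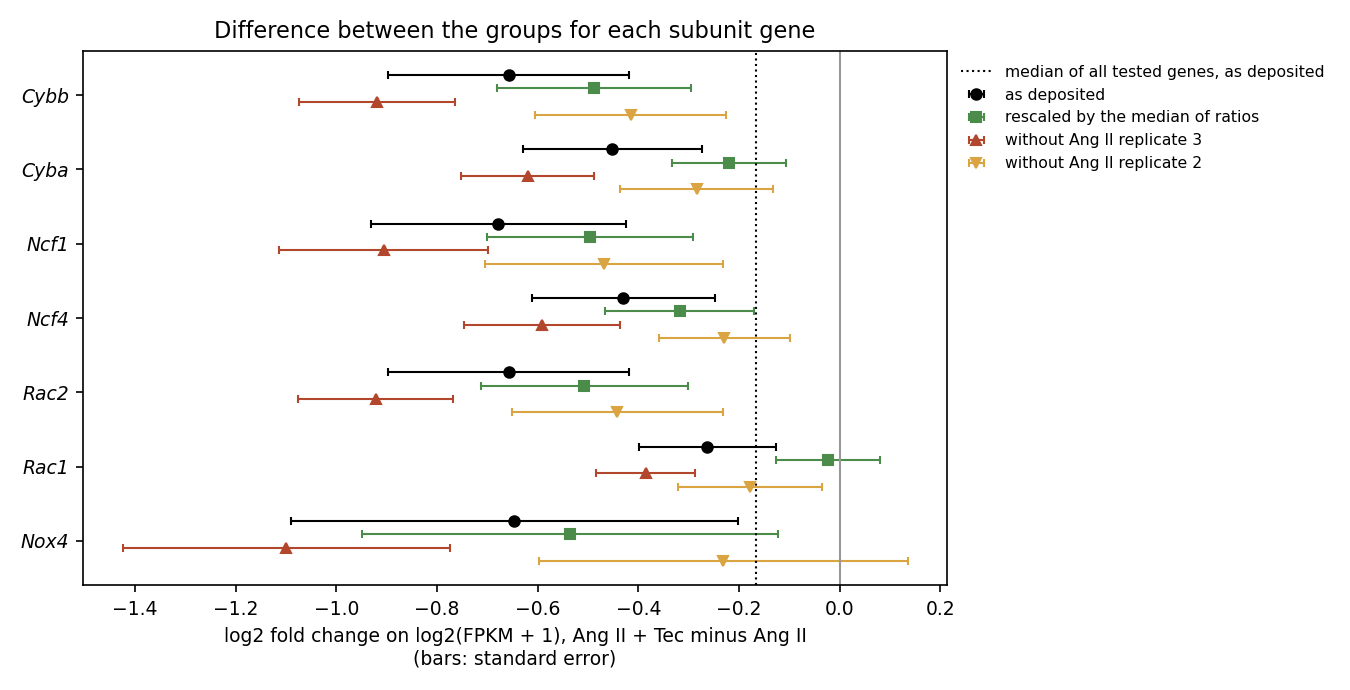
Log2 fold change on log2(FPKM + 1), Ang II + Tec minus Ang II (horizontal axis; bars, standard error), for each subunit gene under 4 settings, with a dotted line at the median of all tested genes (-0.17) for the values as deposited. Every point lies below 0, the estimates without Ang II replicate 3 lie farthest from it, and Rac1 under median-of-ratios scaling lies closest at -0.024.

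The Ang II hearts differed among themselves more than the Ang II + Tec hearts for all genes but Nox4. The coefficient of variation of Cybb was 46.7% with Ang II and 9.81% with Ang II + Tec, and for Ncf4 the values were 52.7% and 11.8%. In all 7 genes Ang II replicate 2 was the highest library, replicate 1 the next and replicate 3 the lowest of its group. Parts of that pattern were common in the whole table. Ang II replicates 1 and 2, in either order, were the 2 highest libraries in 49.7% of all tested genes. Ang II replicate 2 was the highest library in 44.3%, and replicate 3 was the lowest of its group in 71.9%. The share of all tested genes with the full order is not reported here. The calls depended on single hearts. Without Ang II replicate 3, 7 of 7 were lower at an unadjusted p under 0.05 (limma), beside 39.3% of all tested genes. All 7 were then also past an adjusted p of 0.05 (limma, adjusted p from 0.00837 for Rac2 to 0.0418 for Nox4). The share of all tested genes past an adjusted p alone is not reported here, so that count has no background beside it. Differentially expressed genes numbered 557 in place of 21. Without Ang II replicate 1, Ang II replicate 2 or Ang II + Tec replicate 2, in contrast, 0 of 7 were at an unadjusted p under 0.05 (limma), where 6.29%, 7.64% and 16.4% of all tested genes were lower at that limit. Without Ang II + Tec replicate 1 or 3 the counts were 1 and 2, beside 7.68% and 7.60% of all tested genes.

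**Figure D3:**
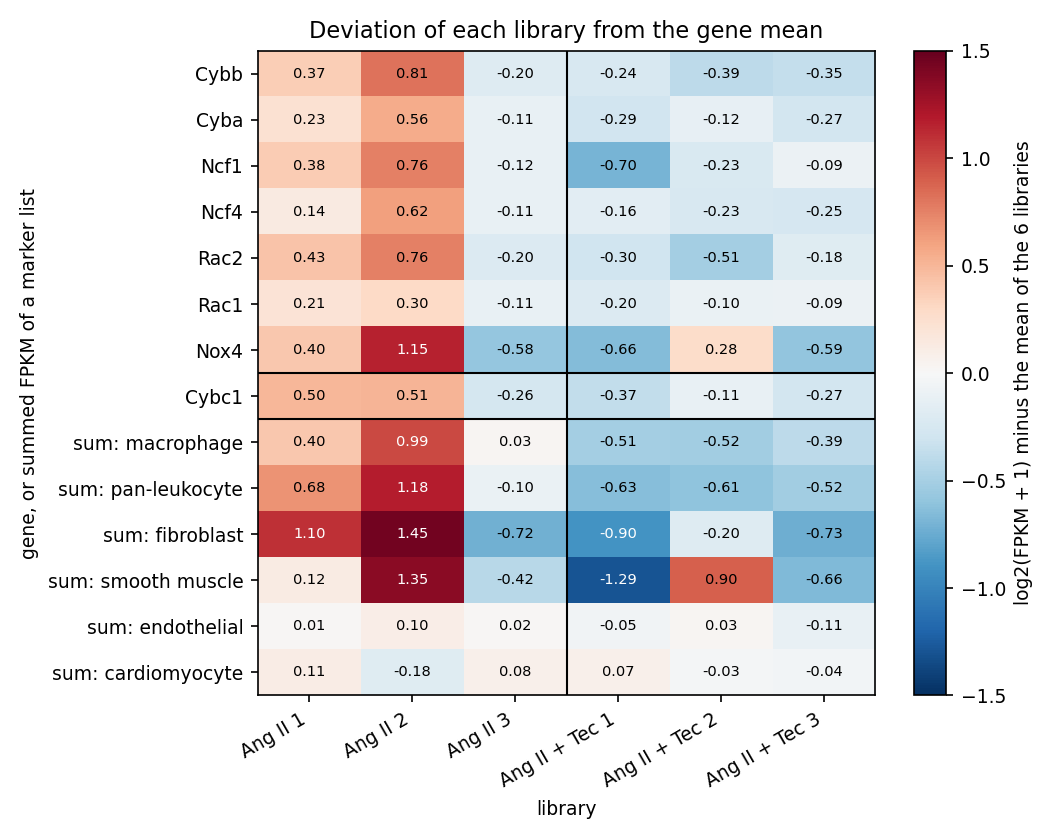
Heat map of log2(FPKM + 1) minus the mean of the 6 libraries, by library (columns, 3 Ang II then 3 Ang II + Tec) for the 7 subunit genes, for Cybc1, and for the summed FPKM of 6 marker lists (rows). Ang II replicates 1 and 2 are above the mean for all 7 subunit genes, and Nox4 is the only subunit gene above it in an Ang II + Tec heart, with 0.28 in replicate 2.

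Macrophage and leukocyte markers were lower with Tec, like the phagocyte subunits, and so were fibroblast markers. The 12 macrophage markers summed to 372.7, 560.6 and 287.3 FPKM with Ang II and to 196.6, 195.4 and 214.6 FPKM with Ang II + Tec, with no overlap. Of the 11 tested markers in that list, 10 were lower at an unadjusted p under 0.05 and 8 did not overlap between the groups, beside 16.5% and 18.9% of all tested genes. After adjustment 0 passed (limma). The 6 pan-leukocyte markers summed to 16.4 to 41.3 FPKM with Ang II and 11.0 to 12.0 FPKM with Ang II + Tec, and 5 of 5 tested were lower at that limit. Markers of neutrophils, which also use this oxidase, were low. Mpo and Ly6g were listed at 0 in every library, and the 7 neutrophil markers in the table summed to 0.33 to 3.24 FPKM. The 1 that passed the filter, S100a9, reached 1.80 FPKM with Ang II and 1.79 FPKM with Ang II + Tec and was not lower with Tec (log2 fold change 0.22). The 8 lymphocyte markers summed to 0.36 to 0.72 FPKM, and none passed the filter. All 6 fibroblast markers were lower with Tec, 3 of them at an unadjusted p under 0.05 (limma). The ratio of their mean sums, Ang II + Tec over Ang II, was 0.365, beside 0.497 for macrophage markers. Both sums were highest in Ang II replicates 1 and 2.

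Cybb per macrophage marker sum did not differ measurably between the groups. Lyz2, C1qa, C1qb and C1qc held most of that sum in every library, so the ratio is weighted to these genes. Lyz2 alone was 290.0 of 560.6 FPKM in Ang II replicate 2. Ratios of Cybb to single markers are not reported here. Per 1000 FPKM of the macrophage list, Cybb stood at 6.95, 6.94 and 4.98 FPKM with Ang II and at 6.87, 5.73 and 5.50 FPKM with Ang II + Tec. The difference in the log2 ratio was -0.050 (two-sided exact permutation test, p = 0.8), and its sign changed with the pseudocount or when single hearts were left out. The list itself differed by -0.95 in mean log2 sum. Counted the same way, Ncf1 and Ncf4 differed by 0.019 and -0.067 per macrophage sum, Rac2 by -0.26 and Nox4 by -0.58, whereas the widely expressed Cyba and Rac1 were higher per macrophage sum by 0.48 and 0.68. The choice of list turned signs. Per pan-leukocyte sum, Cybb differed by 0.23, Ncf4 by 0.22, Ncf1 by 0.30 and Rac2 by 0.022, all higher with Tec, and every Ang II + Tec heart (98.3 to 122.6 FPKM of Cybb per 1000 FPKM of the list) was above every Ang II heart (87.1 to 94.3). These ratios are descriptions and were not tested except for Cybb per macrophage sum. The part of macrophage number in the differences of the subunit genes was not tested.

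Nox4 followed a different pattern across the hearts. Its 3 libraries above 1 FPKM were Ang II replicates 1 and 2 and Ang II + Tec replicate 2, which were also the 3 with abundant Myl7. The 5 atrial markers summed to 6205, 10253 and 256.2 FPKM with Ang II and to 906.4, 5056 and 127.5 FPKM with Ang II + Tec. Nppa held most of each sum, which therefore does not measure atrial tissue alone. In Ang II + Tec replicate 1 it was 906.1 of 906.4 FPKM, where Myl7 was 0 and Myl4 0.29 FPKM. The paper counts this gene, as Anp, among its hypertrophy genes. Smooth muscle markers summed to 134.3, 316.4 and 92.1 FPKM and to 49.9, 231.4 and 77.9 FPKM, and fibroblast markers to 506.0, 643.9 and 142.5 FPKM and to 125.7, 204.9 and 141.6 FPKM. The part of the chambers sampled, of fibroblasts and of smooth muscle in the Nox4 values was not tested. Among the 3 hearts with Myl7 under 10 FPKM (1 Ang II, 2 Ang II + Tec), Nox4 was 0.21 against a mean of 0.175 FPKM, and among the 3 with more Myl7 the means were 2.21 and 1.20 FPKM. All 7 members were lower with Tec within both sets, with log2 differences of -0.28 to -0.031 where Myl7 was low and of -1.10 to -0.36 where it was high. The share of all tested genes lower within each set is not reported here, and over all 6 libraries it was 80.0%. With 1 heart in an arm of each set, these are values with no test, and the Myl7 limit was set after the data were seen.

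**Figure D4:**
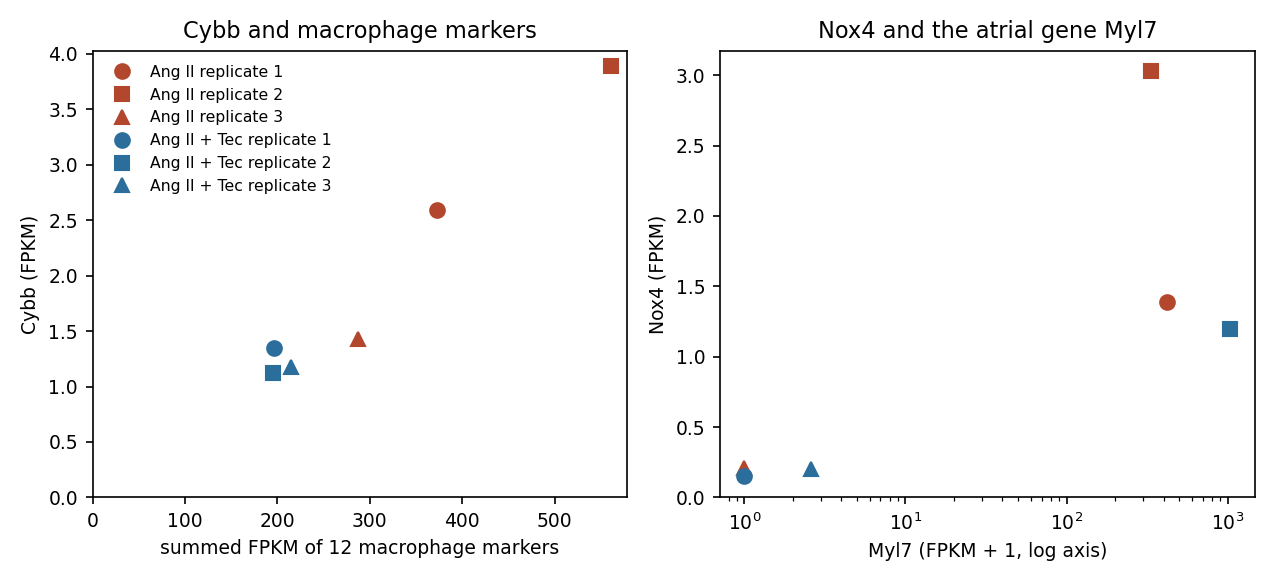
Left, Cybb (FPKM, vertical axis) against the summed FPKM of 12 macrophage markers; right, Nox4 (FPKM) against Myl7 (FPKM + 1, log axis), with 1 point per heart (red, Ang II; blue, Ang II + Tec; shapes, replicates). Cybb was highest, at 3.89 FPKM, where the macrophage sum was highest, at 560.6 FPKM, and Nox4 was above 1 FPKM only in the 3 hearts with abundant Myl7 (332.3 FPKM or more).

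The genes whose profile lay nearest to each member are given as a description, by the root mean square difference of mean-centred log2(FPKM + 1) over the 6 libraries, which share the depth and tissue make-up of each heart. Nearest to Cybb was Ccr1, a chemokine receptor of myeloid cells, at 0.0477, followed by Ssr4 and Tmem14a. Nearest to Rac2 were Aif1, which encodes the macrophage protein IBA1, at 0.0566, then Ptpn6 and Cd14, and nearest to Ncf1 was H2-T22 at 0.0885. Nox4 was nearest to Npy at 0.0759, which encodes neuropeptide Y, then to Sema3d and Actn1. Cyba was nearest to Rnft1, Chmp5 and Ccm2, Rac1 to Myo7a, Zswim3 and Btf3, and Ncf4 to Gm11263, Asf1b and Dnajc24. Among the members, Cyba and Ncf4 (0.0839) and Cybb and Rac2 (0.0943) were the closest pairs on this scale. Nox4 was the farthest from every other member, at 0.386 to 0.515. The added 1 FPKM compresses weakly expressed genes, so a small distance can join a weakly expressed gene to an abundant one. With a pseudocount of 0.1 FPKM, the log2 fold changes were -0.48 for Cyba and -0.89 for Ncf4. They were -0.27 for Rac1 and -0.51 for Myo7a. Distances with that pseudocount are not reported here.

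The rest of the oxidase system was read from 5 lists of 41 genes, of which 39 were in the table and 24 passed the filter. By unadjusted p under 0.05, 4 of the 24 were lower and 1 was higher (limma). Of all tested genes, 16.5% were lower and 2.09% higher at that limit, so the lower count was near the share in the whole table. After adjustment 0 passed (limma), and the median was -0.22 beside -0.17 for all tested genes. Among the other oxidases and subunits, Nox1, a catalytic chain of vessel and colon, was listed at 0 in every library except for 0.02 FPKM in Ang II replicate 2. Cybc1, a chaperone for the gp91phox and p22phox pair, stood at 5.50, 5.53 and 2.82 FPKM and at 2.55, 3.25 and 2.80 FPKM (limma adjusted p = 0.279). Rap1a, a small GTPase that copurifies with the phagocyte cytochrome, had a log2 fold change of -0.31 (SE 0.13; limma adjusted p = 0.268). Nox3 and Noxa1 were not analysed here.

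Of the 6 tested regulators of Rac, 2 were lower at an unadjusted p under 0.05 (limma), beside 16.5% of all tested genes. Arhgdib, which encodes a GDP-dissociation inhibitor of small GTPases in blood cells, stood at 16.8, 20.0 and 10.7 FPKM with Ang II and at 8.11, 9.30 and 7.87 FPKM with Ang II + Tec. Its groups did not overlap, and its log2 fold change of -0.80 (SE 0.22) had an adjusted p of 0.203 (limma). Prex1, a Rac exchange factor of myeloid cells, stood at 0.92, 1.08 and 0.59 FPKM with Ang II and at 0.49, 0.55 and 0.43 FPKM with Ang II + Tec. It lay near the filter limit and passed it mainly through the Ang II libraries. Its log2 fold change was -0.31 (SE 0.12, limma adjusted p = 0.253). None of the 4 tested kinases was past an unadjusted p of 0.05 in limma. Agtr1a, the angiotensin II type 1a receptor, had a log2 fold change of -0.13 (SE 0.19; limma adjusted p = 0.684) and was the only receptor that passed the filter.

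The enzymes that remove superoxide and peroxide were split in direction, 4 of 8 lower with Tec. Cat, which encodes catalase, stood at 40.4, 34.9 and 38.7 FPKM with Ang II and at 48.7, 53.7 and 48.0 FPKM with Ang II + Tec. Every Ang II + Tec heart was above every Ang II heart, and the log2 fold change was 0.39 (SE 0.11; limma adjusted p = 0.217). Gpx1, which encodes a glutathione peroxidase, stood at 73.7, 90.5 and 43.3 FPKM and at 34.6, 46.3 and 34.0 FPKM, with overlap (log2 fold change -0.79, SE 0.27; limma adjusted p = 0.230). Neither passed the adjustment.

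**Figure D5:**
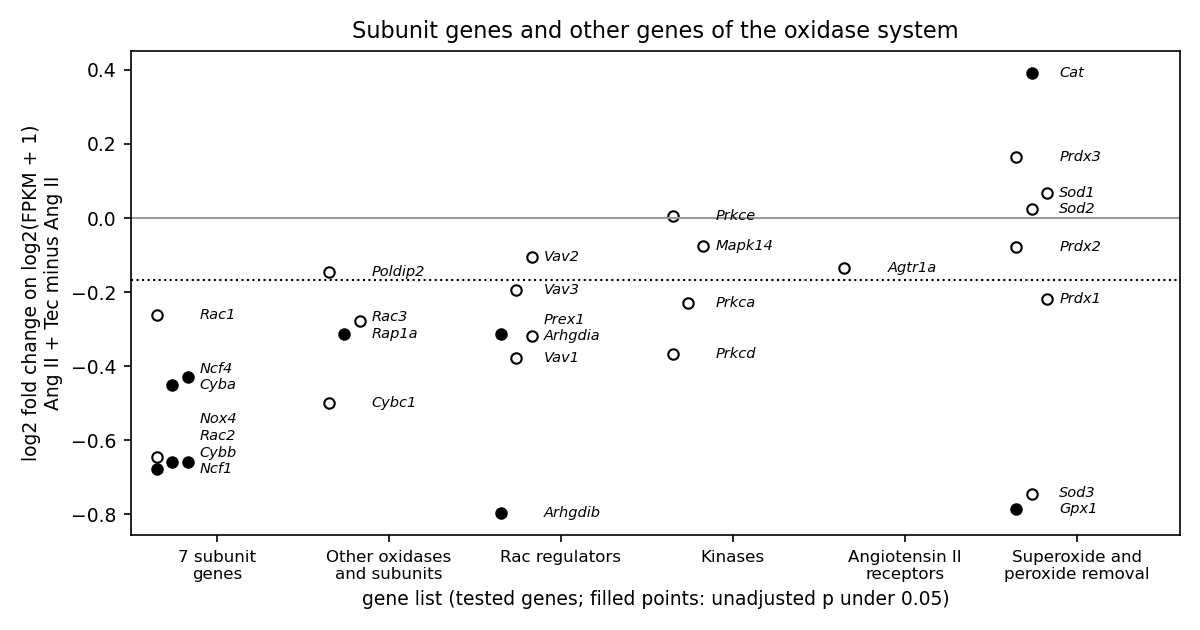
Log2 fold change on log2(FPKM + 1), Ang II + Tec minus Ang II (vertical axis), for the 7 subunit genes and tested genes of 5 other lists (horizontal axis; points are spread sideways for legibility and 1 tested gene is not shown), with filled points for an unadjusted p under 0.05 and a dotted line at the median of all tested genes. The subunit genes lie between -0.68 and -0.26, and Cat at 0.39 is the only filled point above 0.

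Some counts may be shared with neighbours. Ncf1 overlaps Gtf2ird2 (at most 1.24 FPKM), and Rac1 overlaps Daglb (at most 1.16 FPKM) and Gm42502 (listed at 0), all on the opposite strand, as is Gm20388 at Cyba, which was not analysed here. Strand handling was not stated in the sources used here, so reads of such pairs cannot be told apart.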

How the data were processed

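Poly(A) RNA from 3 Ang II and 3 Ang II + Tec hearts was sequenced in read pairs. Adapters and low-quality reads had been removed with Cutadapt, read quality had been inspected with FastQC, and the authors deposited 1 FPKM value per gene and heart, rounded to 2 decimals. The submitters' processing notes name Bowtie 0.12.2, HISAT2 2.0, StringTie 1.3.0 and mm8, without roles. The deposited coordinates nevertheless equal GENCODE M21 (GRCm38) for 27910 of 30832 shared genes (90.5%), the 7 members included. The sum of FPKM differs between libraries and no fragment totals were given.

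Groups were taken from the labels. The deposited FPKM were used without further scaling. Genes at 0.5 FPKM or more in at least 3 libraries were tested on log2(FPKM + 1) with limma 3.58.1 (R 4.3.3; lmFit, eBayes with trend, Benjamini-Hochberg over all tested genes), after the procedure was tested on simulated data. Fold changes on this scale are understated for weakly expressed genes. The p-values measure the spread between these 3 hearts a group. Ratios within a library were compared by two-sided exact permutation tests. Intervals are at 95% confidence from limma.

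The members and gene lists were chosen with earlier results of these data known. Named were the 7 members, other genes of the system at an unadjusted p under 0.05 with Nox1 always, and the 3 nearest profiles for each member. Some genes under this rule are not reported here by name but stay in the counts. Cybc1 and Agtr1a fall outside this rule and were added after their values were seen. Alternatives varied the pseudocount, scaling, filter, replicate block, library weights and trend, and left out each heart in turn. Start windows were RefSeq's, GRCm38.p6. Figures were drawn with matplotlib 3.10.9.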

Additional observations from a re-analysis of the deposited data

How the results depend on the processing

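Direction held widely for the members. Of 117 log2 fold changes of the 7 members under alternatives, 0 were reversed. In 14 an adjusted p of 0.05 was passed (limma, with library weights or without Ang II replicate 3). Another 7 moved by more than the spread, all within the Myl7 sets, and the remaining 96 kept direction with neither change. Values within the Myl7 sets had no test. Calls at an unadjusted p are not part of this tally and did change. For the other 27 named genes, 0 of 397 were reversed. The count of members at an unadjusted p under 0.05, 5 in the values as deposited, was 3 with median-of-ratios scaling, 2 with quantile normalization, 3 of 5 tested with a filter at 1 FPKM and between 0 and 7 when 1 heart was left out, beside 7.90%, 7.89%, 17.2% and 6.29% to 39.3% of all tested genes. The count with no overlap, 3, was 1 with quantile normalization and 3 to 7 with 1 heart left out, beside 10.2% and 19.9% to 53.7% of all tested genes. Differentially expressed genes, 21 in the whole table, numbered 3 without a filter, 505 with library weights and 2 to 557 with 1 heart left out. Library weights put 59.7% of all tested genes lower at an unadjusted p under 0.05, so the 7 of 7 members past it there say little about the family.

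The Cybb to Nox4 difference of 0.54 ranged from -0.11 (without Ang II + Tec replicate 1) to 1.52 with 1 heart left out, and that of Rac2 to Rac1 from -1.27 to -0.69. The Cybb to macrophage marker difference of -0.050 was 0.0017 with a pseudocount of 0.1 FPKM and ranged from -0.21 to 0.031, turning positive without Ang II replicate 1 (0.031), Ang II replicate 2 (0.030) or Ang II + Tec replicate 3 (0.014). With 1 heart left out, exact tests of these ratios cannot go below 0.2.

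Deviations of same-numbered hearts correlated at -0.039, 0.43 and 0.38, and those of different-numbered hearts at -0.44 to 0.23. These values do not settle whether the replicate numbers pair the hearts, and the main fit used no block. With the replicate block, 22 genes were differentially expressed. Among the members, 6 were then at an unadjusted p under 0.05 (limma), beside 22.9% of all tested genes, and 0 passed the adjustment. Nox4 was one of the 6, with an SE of 0.20 in place of 0.44 (limma unadjusted p = 0.0156, adjusted p = 0.140). The unknown depth limits what can be said of Ncf4 and Nox4 near or below 0.5 FPKM.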
